A study of Mus musculus with 6 samples.

Results

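Metallothioneins and zinc transporters were examined in mouse adipocyte precursor cells that overexpressed a mutant of PPARγ2, the nuclear receptor that drives adipocyte differentiation. The set held 10 of the 56884 gene IDs in the deposited tables, taken by name: the metallothioneins Mt1, Mt2 and Mt3, the transcription factor Mtf1, the zinc exporters Slc30a1, Slc30a2 and Slc30a10, and the zinc importers Slc39a8, Slc39a10 and Slc39a14. These names were picked with the difference between the mutants already known, so the values of the 10 genes in that comparison are a description and no p-value is given for them. The cells were a mouse line from the stromal vascular fraction (SVF) of subcutaneous white adipose tissue (scWAT). One group, K382Q, carried a retroviral PPARγ2 whose lysine 382 was changed to glutamine, which mimics the acetylated receptor (3 biological replicates). The other, K382R, carried arginine there, which mimics the deacetylated receptor (3 biological replicates). Both had been selected as stable lines with puromycin, and both were collected on day 2 of beige adipocyte differentiation in medium with the PPARγ agonist rosiglitazone (0.5 μM), dexamethasone (2 μg/mL), insulin (5 μg/mL), the thyroid hormone T3 (1 nM), isobutylmethylxanthine (500 μM) and indomethacin (125 μM). Cells without a transgene, or with the unmutated receptor, were not among the 6 libraries. Whether the replicates of a mutant came from 1 or more selected populations is not given in the sources used here.

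Zinc is a cofactor of very many enzymes and transcription factors, and the free ion is toxic, so cells hold it at a very low level. Metallothioneins are small cysteine-rich proteins that bind zinc, copper and cadmium in the cytoplasm. Transporters of the Slc30a family (ZnT proteins) move zinc out of the cytoplasm, to the outside or into organelles, and those of the Slc39a family (ZIP proteins) move it in. MTF-1, the protein of Mtf1, senses zinc and activates metallothionein genes and Slc30a1 through metal response elements in the DNA. Metallothionein genes also respond to glucocorticoids, and in adipose tissue they are known to rise with cold exposure and during adipocyte differentiation.

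Adipocyte transcripts were abundant in all libraries, with a summed TPM of 8 markers of 52273 to 55968 in K382Q cells and of 43845 to 45040 in K382R cells; Fabp4, the fatty acid binding protein of adipocytes, made up most of it, and Lep was at 0. Of the 7 adipocyte markers tested, Fabp4 and Cidec were higher in K382Q cells and Adipoq, Pparg, Cebpa and Lpl were lower. Both lines overexpress PPARγ2, so the level of Pparg may include transgene RNA, and it is no marker of adipocytes here. Markers of preadipocytes and fibroblasts summed to 570 to 615 in K382Q cells and 940 to 978 in K382R cells, and all 6 that could be tested were lower in K382Q cells; of all genes tested, 11.1% were higher and 36.9% lower (adjusted p under 0.05, limma). Mural cell markers summed to 9.51 to 11.2 and to 17.7 to 21.4, which was mostly Mcam (means of 7.45 and 16.8), whereas Cspg4 lay the other way (2.62 and 1.74). Of the 8 leukocyte markers 7 were below a TPM of 0.5 in every library, as were 4 of the 5 endothelial markers. The part of these shifts in the results below was not tested, and in bulk RNA fewer cells of a type and less RNA per cell cannot be told apart. Aligned sequence ranged from 5.95 to 7.50 Gb in K382Q libraries and from 6.53 to 8.15 Gb in K382R libraries.

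Mt1 and Mt2, the metallothioneins of most tissues, were more than 2-fold higher in K382Q cells, and the 4 zinc transporters among the 10 that could be tested were lower, by at most 1.48-fold. TPM is the share of a transcript among all transcripts of a library, set per length. Mt1 (ENSMUSG00000031765.9) had a TPM of 3530, 3735 and 3603 in K382Q replicates 1 to 3 and of 1389, 1373 and 1343 in K382R replicates 1 to 3. Every K382Q library was thus far above every K382R library, and the scatter within a group was small beside the gap. The means were 3622 ± 104 (SD, n = 3) and 1369 ± 23.3 (SD, n = 3), a 2.65-fold difference in TPM. Such folds of a gene, given without a log, are ratios of mean TPM. On the log2(TPM + 0.5) scale used for all log2 fold changes below, the log2 fold change of Mt1 was 1.40 (SE 0.032). Mt2 (ENSMUSG00000031762.8) had a TPM of 2902, 3029 and 2910 in K382Q cells and of 1088, 1145 and 1131 in K382R cells. Its libraries were separated in the same way, with means of 2947 ± 71.3 and 1121 ± 29.7 (SD, n = 3 each), a 2.63-fold difference and a log2 fold change of 1.39 (SE 0.033).

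**Figure D1:**
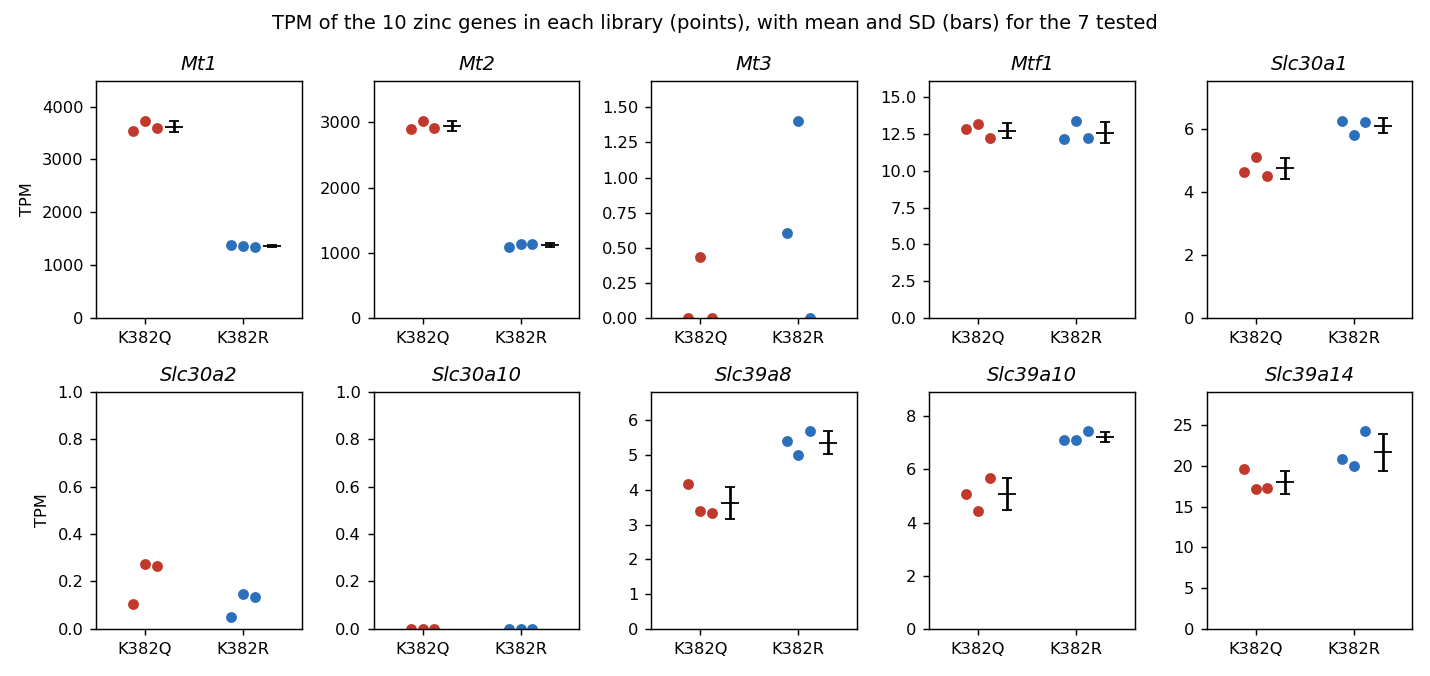
TPM of each of the 10 genes in each of the 6 libraries (points; red K382Q, blue K382R), each panel with its own linear axis from 0, with the mean and SD over 3 libraries drawn beside the points for the 7 genes that were tested. Mt1 and Mt2 stand at 2902 to 3735 in K382Q cells and at 1088 to 1389 in K382R cells, while Slc30a1, Slc39a8, Slc39a10 and Slc39a14 lie lower in K382Q cells.

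Among all gene IDs ranked by mean TPM, Mt1 was the 13th most abundant transcript of K382Q cells and the 81st of K382R cells. Mt2 held rank 23 and rank 113. Together the pair took 0.657% ± 0.017 of all TPM in K382Q libraries and 0.249% ± 0.0024 in K382R libraries (SD, n = 3 each). Of the 139 genes whose mean TPM over all libraries was at least 1000, Mt1 and Mt2 had the second and the third highest log2 fold change, after mt-Ts1, a mitochondrially encoded serine tRNA; among all 15426 genes tested, 73 had a higher log2 fold change than Mt1 and 75 a higher one than Mt2.

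The proportion of the pair was nearly the same in both mutants. Mt2 over Mt1 in TPM was 0.822, 0.811 and 0.808 in K382Q libraries and 0.783, 0.834 and 0.842 in K382R libraries, so that the K382Q values lay inside the range of the K382R values. The means were 0.814 ± 0.0077 and 0.820 ± 0.032 (SD, n = 3 each). Which of the pair is the more abundant depended on the unit: by mean read depth over the gene the ratio was 1.59 in K382Q and 1.61 in K382R libraries, so no order of Mt1 and Mt2 is drawn here. The coding sequences of Mt1 and Mt2, 183 bases each, were identical at 79.2% of aligned positions, but the longest run that any of their annotated transcripts shared was 20 bases, against reads of 150 bp.

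The 2 genes lie side by side on chromosome 8 in GRCm39, Mt2 at 94899292-94900196 and Mt1 at 94905710-94906955, both on the plus strand. In the 300 bases before the coding start, the core of the metal response element (TGCACNC or TGCGCNC, on either strand) occurred 5 times at Mt1, from 245 to 124 bases before the start codon, and 5 times at Mt2, from 280 to 119 bases before it. Of the 21756 windows of that kind in the mouse annotation, 25.4% held at least 1 match and 31 (0.142%) held at least 5. The element was looked for because it is already known from metallothionein genes, so nothing is read from this share. The matches are printed to show which letters of the searched pattern occurred at each gene. The cores TGCACAC and TGCGCTC occurred at both Mt1 and Mt2, the latter also at Slc30a1, and the other cores did not occur at both Mt1 and Mt2. Capitals mark the core, the 5 bases on each side are in lower case, and each is read 5′ to 3′ on the strand named.
Mt1, chr8:94905689-94905705, plus: cgctgTGCACACtggcg
Mt1, chr8:94905714-94905730, plus: agctcTGCACTCcgccc
Mt1, chr8:94905732-94905748, plus: aaaagTGCGCTCggctc
Mt1, chr8:94905796-94905812, minus: gggttTGCACCCagcag
Mt1, chr8:94905810-94905826, plus: cccttTGCGCCCggact
Mt2, chr8:94899191-94899207, minus: gagccTGCACACgccct
Mt2, chr8:94899245-94899261, minus: gggccTGCGCACgaccc
Mt2, chr8:94899299-94899315, minus: ccgccTGCACACgccct
Mt2, chr8:94899318-94899334, minus: caccaTGCACGCgcccc
Mt2, chr8:94899352-94899368, plus: gctttTGCGCTCgaccc
Slc30a1, chr1:191638845-191638861, minus: tgcttTGCACTCggaac
Slc30a1, chr1:191638918-191638934, minus: gcgacTGCGCTCggccc
The exporter gene Slc30a1, printed for comparison because MTF-1 is known to act on it too, had 2 matches, and 7.04% of all windows held at least that many. Most matches of Mt1 lay on the plus strand (4 of 5) and most of Mt2 on the minus strand (4 of 5). Slc30a2 had 4 matches, Mt3 3, Slc30a10 2 and Slc39a8 1, and these letters were not in the windows of Mtf1, Slc39a10 and Slc39a14. Part of the windows of Mt1, Mt2 and Slc30a1 is annotated as transcribed. The annotated genes begin at 94905710 (Mt1), 94899292 (Mt2) and 191638879 (Slc30a1). Most printed matches of Mt1 and of Mt2 therefore lie inside the annotated gene and not before it. In the windows of the RefSeq promoter table, placed differently (250 bases before to 50 after an annotated start, GRCm38.p6), which held 9 of the 10 genes, Mt1 had 3 matches, Mt2 4 and Slc30a1 2, against 25.7% of 32851 promoters with at least 1 match and 0.517% with at least 4. A match is a description of the letters and not a bound site.

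Mt3, the metallothionein known mainly from the brain, was near or at 0. It was listed at 0, 0.436 and 0 in K382Q libraries and at 0.608, 1.41 and 0 in K382R libraries, and did not reach the expression filter, which asked for 3 or more libraries at a TPM of 0.5 or above. Mt4, the metallothionein of stratified epithelia and the remaining gene of the cluster, was above 0 in 1 library of each group and highest at 0.222. The difference between the mutants was thus measured on Mt1 and Mt2, the only metallothioneins that reached the filter.

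Mtf1 itself differed by less than the spread between replicates in TPM. Its TPM was 12.8, 13.2 and 12.2 in K382Q cells and 12.1, 13.4 and 12.2 in K382R cells. The ranges overlapped, and the log2 fold change was 0.016 (SE 0.065). Its sign depended on the setting: it was -0.10 when the mean read depth of the gene was used in place of TPM, 0.16 with median-ratio scaling and 0.18 with quantile normalization, and it was not called in any of the 16 alternatives. 1110065P20Rik overlaps the end of Mtf1 on the opposite strand, with a mean TPM of 22.1 in K382Q and 26.7 in K382R cells. The library kit was NEBNext Ultra RNA, and whether reads were counted by strand is not given in the sources used here, so reads of the shared stretch cannot be told apart.

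Of the 10 genes, 7 passed the filter; 6 of these had an adjusted p under 0.05 in limma, 2 higher and 4 lower in K382Q cells. Over all genes tested the same call was made for 48.1%, 11.1% higher and 36.9% lower. Mt1 and Mt2 also had a fold change over 2, as did 3.88% of all genes (1.27% higher and 2.61% lower). The libraries of the groups did not overlap for 6 of the 7, and for 57.0% of all genes. Since the names were taken with this comparison known, nothing is read from these shares. The median log2 fold change of the 7 was -0.26 beside -0.14 for all genes tested; with scaling by the median ratio of each library these became -0.11 and 0.0032, so small negative values are partly a matter of how the libraries are scaled.

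Slc30a1, the exporter of the plasma membrane (ZnT1), was lower in K382Q cells. Its TPM was 4.64, 5.12 and 4.49 in K382Q libraries and 6.27, 5.82 and 6.21 in K382R libraries, with no overlap. K382R cells had 1.28-fold more, and the log2 fold change was -0.33 (SE 0.087). With median-ratio scaling it was -0.19, and the call at an adjusted p under 0.05 was lost with that scaling, with quantile normalization, without K382Q replicate 3 (-0.30) and without K382R replicate 1 (-0.31). Relative to Mt1, which shares its activator, Slc30a1 stood at 1.31 ± 0.061 TPM per 1000 TPM of Mt1 in K382Q cells and at 4.46 ± 0.20 in K382R cells (SD, n = 3 each).

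The other exporters among the 10 were hardly present. Slc30a2, which loads zinc into vesicles of secretory cells, had a TPM of 0.104, 0.275 and 0.264 in K382Q cells and of 0.0498, 0.147 and 0.134 in K382R cells, overlapping and below the filter. Slc30a10, which is known as a manganese exporter, was listed at 0 in all 6 libraries.

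The 3 importers were all lower in K382Q cells. Slc39a8 (ZIP8), which carries zinc, manganese and cadmium, had a TPM of 4.17, 3.38 and 3.35 in K382Q cells and of 5.40, 5.01 and 5.69 in K382R cells. These did not overlap, with a log2 fold change of -0.51 (SE 0.11) and 1.48-fold more in K382R cells. Slc39a10 (ZIP10), an importer of the plasma membrane, had a TPM of 5.09, 4.45 and 5.68 in K382Q cells and of 7.11, 7.10 and 7.44 in K382R cells. They were likewise apart, at 1.42-fold and a log2 fold change of -0.47 (SE 0.099), although the K382Q libraries were scattered over a wider range than the K382R libraries. Slc39a14 (ZIP14), which carries zinc, manganese and iron that is not bound to transferrin, had a TPM of 19.6, 17.2 and 17.3 in K382Q cells and of 20.8, 20.0 and 24.3 in K382R cells. The highest K382Q library came close to the lowest K382R library, and the log2 fold change was -0.26 (SE 0.087).

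Across the 16 alternatives the log2 fold change ran from -0.60 to -0.37 for Slc39a8, from -0.55 to -0.33 for Slc39a10 and from -0.32 to -0.10 for Slc39a14, and from 1.30 to 1.56 for Mt1 and 1.19 to 1.55 for Mt2. Slc39a14 lost its call in 10 of the 16, among them median-ratio scaling (-0.11) and the fits without K382Q replicate 2 (-0.22), K382Q replicate 3 (-0.23), K382R replicate 1 (-0.29) or K382R replicate 3 (-0.18). That the others stayed under the threshold is not read as support, since the genes were picked in this comparison.

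The remaining Slc30a and Slc39a genes and Mt4 gave the wider picture of zinc transport: of 19 genes 13 could be tested, and 1 was higher, 6 were lower and 6 did not pass at an adjusted p under 0.05 (limma, Benjamini-Hochberg over all 15426 genes). The background was 11.1% higher and 36.9% lower, 48.1% in all, a share near that of these 13. Their median log2 fold change was -0.22, beside the -0.14 of all genes tested, and none had a fold change over 2. With median-ratio scaling 3 were higher and 3 lower, beside 19.8% and 20.4% of all genes. Slc39a1 (ZIP1), a widely expressed importer of the plasma membrane, had the largest difference: 97.9 ± 4.24 TPM in K382Q and 156 ± 4.88 in K382R cells (SD, n = 3 each), a log2 fold change of -0.67 (SE 0.042, limma adjusted p = 1.23e-05), and it was lower in 3 of 3 K382Q libraries than in any K382R library. Slc39a6 (ZIP6), a close relative of Slc39a10, fell from 34.9 ± 1.79 in K382R cells to 24.5 ± 0.96 in K382Q cells, a log2 fold change of -0.50 (SE 0.054, limma adjusted p = 0.000185).

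**Figure D2:**
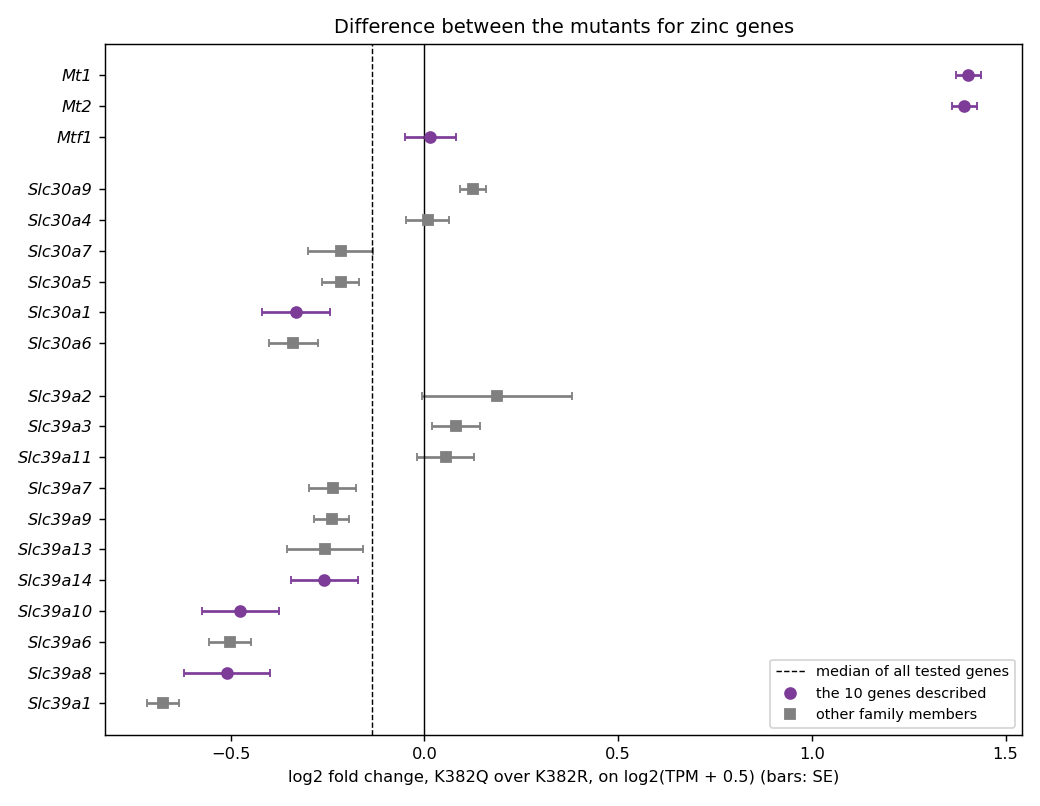
Log2 fold change of K382Q over K382R cells with its SE for the 20 tested metallothionein, Mtf1, Slc30a and Slc39a genes, purple circles for the 10 genes described and grey squares for the rest of the families; the dashed line marks the median of all genes tested (-0.14). Mt1 and Mt2 lie at 1.40 and 1.39, and no transporter lies beyond -0.67 or 0.19.

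Slc39a7 (ZIP7), which releases zinc from the endoplasmic reticulum, was at 136 ± 12.5 TPM in K382Q and 159 ± 2.34 in K382R cells, and its log2 fold change was -0.24 (SE 0.061), a call that was lost in 4 of 16 alternatives, among them median-ratio scaling (-0.08). Slc39a9 was at 24.7 ± 0.72 and 29.2 ± 0.79 (log2 fold change -0.24, SE 0.045). Slc30a5 and Slc30a6, which form a complex that fills the early secretory pathway with zinc, had log2 fold changes of -0.22 (SE 0.047) and -0.34 (SE 0.064). With median-ratio scaling Slc30a6 kept its call, at a smaller -0.19, and Slc30a5 and Slc39a9 did not, at -0.07 and -0.09. With quantile normalization Slc30a6 lost its call too (-0.18). Slc30a9, a mitochondrial transporter, was the one that was higher, at 44.5 ± 0.20 and 40.7 ± 0.29 TPM (log2 fold change 0.13, SE 0.034). Its log2 fold change was 0.28 with median-ratio scaling and 0.29 with quantile normalization. Its call was lost without K382R replicate 1 or K382R replicate 2 at nearly the same fold change, 0.12 in both. Slc30a4, Slc30a7, Slc39a2, Slc39a3, Slc39a11 and Slc39a13 did not pass, with log2 fold changes from -0.26 for Slc39a13 to 0.19 for Slc39a2; with median-ratio scaling Slc30a4 and Slc39a3 were called higher, at 0.16 and 0.23. Slc30a7 was called lower without K382Q replicate 3 (-0.30) and by gene-wide coverage (-0.25), and Slc39a13 without K382R replicate 1 (-0.35). Slc39a11 was called higher with quantile normalization (0.22). Slc30a3, Slc30a8, Slc39a4, Slc39a5 and Slc39a12 did not reach the filter.

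By family, 6 of the 10 Slc30a genes were tested, of which 1 was higher and 3 were lower, and 11 of the 14 Slc39a genes, of which none was higher and 7 were lower, beside 11.1% higher and 36.9% lower of all genes tested. With median-ratio scaling the Slc30a genes gave 2 higher and 1 lower, and the Slc39a genes 1 higher and 4 lower, beside 19.8% higher and 20.4% lower of all genes tested with that scaling. Neither of the families is free of the 10 genes that were chosen by their values, so the counts are given as a description. The summed TPM of the Slc30a genes was 152 ± 4.16 in K382Q and 164 ± 3.26 in K382R cells (SD, n = 3 each). That of the Slc39a genes was 365 ± 6.22 and 471 ± 14.7. Their ratio does not depend on the scaling of a library, but it does depend on the unit, and it is given in TPM only. It was 2.35, 2.43 and 2.43 in K382Q libraries and 2.78, 2.91 and 2.94 in K382R libraries. The ratio was lower in all K382Q libraries than in all K382R libraries, with means of 2.40 ± 0.047 and 2.88 ± 0.083. Slc39a1 alone made up 58.5 of the 107 TPM by which the Slc39a sums differed, and without it the ratios were 1.76 ± 0.058 and 1.92 ± 0.064, ranging from 1.71 to 1.82 and from 1.85 to 1.96.

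Set in order of mean TPM over all libraries, the transporters ran from Slc39a7 at 147 and Slc39a1 at 127 over Slc30a5 at 57.0, Slc30a9 at 42.6, Slc39a6 at 29.7, Slc39a9 at 26.9, Slc30a4 at 22.2, Slc39a13 at 20.4 and Slc39a14 at 19.9 to Slc39a3 at 18.6, Slc30a6 at 18.5, Slc39a11 at 15.0, Slc30a7 at 11.9, Slc39a10 at 6.15, Slc30a1 at 5.43, Slc39a8 at 4.50 and Slc39a2 at 2.04, the remaining ones being below the filter. Of the importers among the 10, Slc39a14 was therefore in the middle of the order by TPM, and Slc39a8 and Slc39a10 near its lower end. Counted with Mtf1 in the order, Slc39a14 held rank 9 by TPM and rank 13 by coverage scaled to the library. The order is one of TPM and depends on the unit: by coverage scaled to the library, Slc39a11 stood at 0.493, below Slc39a8 (1.91), Slc39a6 (28.2) moved above Slc30a5 (24.7), and in K382R cells Slc39a1 (156 ± 4.88) lay above Slc39a7 (141 ± 1.76). Neighbours in this order did not all differ beyond their spread. Slc39a7 and Slc39a1 were apart in K382Q cells and overlapped in K382R cells; Slc39a13 and Slc39a14 overlapped in both; Slc39a10 and Slc30a1 overlapped in K382Q and were apart in K382R cells. Mtf1, at 12.7, lay between Slc39a11 and Slc30a7 and overlapped with Slc30a7 in both groups.

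**Figure D3:**
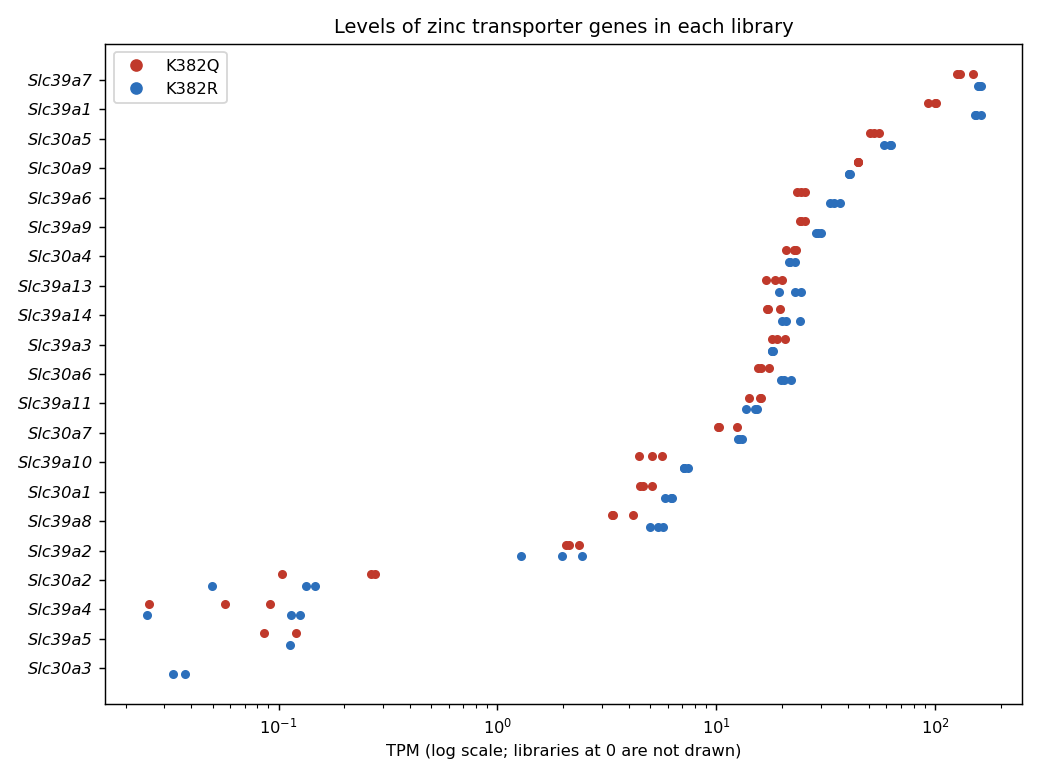
TPM of each Slc30a and Slc39a gene in each library on a log axis (red K382Q, blue K382R), ordered by mean TPM; libraries at 0 are not drawn. Levels run from 147 for Slc39a7 to under 0.2 for Slc39a4, Slc39a5 and Slc30a3, and the blue points lie to the right of the red ones for most genes in the upper part.

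Apart from 1 transcript that overlaps Mt2, the genes around the metallothioneins did not share the size of their difference. Within 250 kb of Mt1 the tables listed 20 genes besides Mt1 and Mt2, of which 9 could be tested; 2 were higher, 3 lower and 4 did not pass, a share of calls near the 48.1% of all genes tested. Nup93, a nuclear pore protein and the nearest protein-coding gene on the far side of Mt1, had a log2 fold change of -0.41 (SE 0.043). Ogfod1, an oxygenase that acts on a ribosomal protein, was lower too, at -0.31 (SE 0.080). Herpud1, which acts in the degradation of misfolded proteins, was higher by 0.19 (SE 0.033). The remaining higher gene was Gm45774, at 4.99 ± 0.86 and 2.05 ± 0.24 TPM (SD, n = 3 each), with a log2 fold change of 1.10 (SE 0.14). Gm45774 spans chr8:94897376-94900040 on the minus strand and overlaps most of Mt2, so its reads and those of Mt2 cannot be told apart without strand. The mean TPM of Mt2 was 2947 and 1121.

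**Figure D4:**
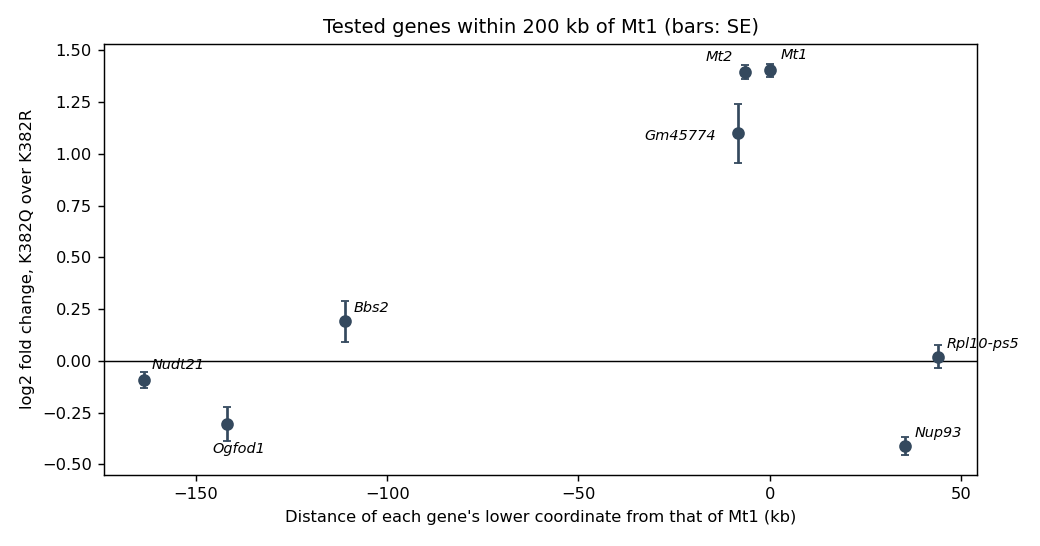
Log2 fold change of K382Q over K382R cells with its SE against the distance of each gene's lower coordinate from that of Mt1, for the 8 tested genes within 200 kb. Mt1, Mt2 and the overlapping Gm45774 lie at 1.10 to 1.40, and all others between -0.41 and 0.19.

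Among the genes whose pattern over the 6 libraries was nearest to that of Mt1 were Mt2 and Egln3, a prolyl hydroxylase of the oxygen response, by root mean square difference of centred log2(TPM + 0.5) among 10644 genes (0.034 and 0.041). For Mt2 they included Mt1 and Bhlhe40, a transcriptional repressor of the circadian system (0.034 and 0.041). Egln3 was at 141 ± 4.64 and 50.6 ± 0.65 TPM and Bhlhe40 at 126 ± 4.68 and 48.3 ± 0.61 in K382Q and K382R cells (SD, n = 3 each). Their log2 fold changes were 1.47 and 1.37. With 2 groups of 3 libraries, likeness here means mostly a difference between the mutants of the same size.

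Genes for the handling of other metals, which metallothioneins and some of the transporters also bind or carry, were read from 2 further lists, beside the 11.1% higher and 36.9% lower of all genes tested. Of 18 copper genes tested, 2 were higher and 8 lower (6 and 3 with median-ratio scaling): Cp, the copper ferroxidase ceruloplasmin, was higher by 0.60 (SE 0.066) and the mitochondrial copper chaperone Cox17 by 0.27 (SE 0.048), whereas the metalloreductases Steap3 and Steap2 were at -0.78 (SE 0.070) and -0.68 (SE 0.080). The copper importer Slc31a1 and the copper pump Atp7a did not pass, with log2 fold changes of 0.02 and 0.01 (0.17 and 0.16 with median-ratio scaling). Slc31a1 was called in 2 of 16 alternatives. Of 22 iron and manganese genes tested, 1 was higher and 8 were lower (4 and 6 with median-ratio scaling). The higher one was Tfr2, a transferrin receptor with a mean TPM of 0.756 and 0.164, at 0.92 (SE 0.26); it reached the filter through its K382Q libraries alone (0.599, 1.10 and 0.571 TPM, against 0.312, 0.0305 and 0.149), so its call is no result; its log2 fold change ran from 0.59 with a pseudocount of 1 to 1.80 with 0.1, and its call was lost without K382Q replicate 2, K382R replicate 2 or K382R replicate 3 (0.73, 0.77 and 0.91). The lower ones included Trf, the iron carrier transferrin (-1.20, SE 0.21), Slc11a2, the divalent metal importer (-0.56, SE 0.049), and the ferritin light chain Ftl1 (-0.47, SE 0.039). The ferritin heavy chain Fth1 was at 0.03 (SE 0.035). Across 16 alternatives Fth1 ran from -0.11 to 0.18 and was called in 2, and Ftl1 ran from -0.79 to -0.32 and was called in 16. The median log2 fold changes of the copper and of the iron and manganese genes were -0.06 and -0.11, beside the -0.14 of all genes tested; with median-ratio scaling they turned to 0.09 and 0.04, beside 0.0032.

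All cultures contained dexamethasone, a glucocorticoid, so known glucocorticoid-responsive genes were read beside the metallothioneins. Of 16 tested, 10 were higher in K382Q cells, 3 were lower and 3 did not pass, beside 11.1% higher and 36.9% lower of all genes tested. Their median log2 fold change was 0.41 beside -0.14 for all genes, and with median-ratio scaling 12 were higher and 3 lower, with a median of 0.56 beside 0.0032. Pdk4, a kinase that restrains glucose oxidation, was the highest at 326 ± 3.62 and 161 ± 3.32 TPM (log2 fold change 1.01, SE 0.028), followed by Ddit4, an inhibitor of mTORC1 (0.99, SE 0.045). Fkbp5, Per1 and Tsc22d3 were higher by 0.46, 0.52 and 0.42 (SE 0.042, 0.041 and 0.044). In the opposite direction Sgk1, a kinase of ion transport, was at -0.79 (SE 0.047) and Cebpd, an early transcription factor of adipogenesis, at -0.63 (SE 0.075). Mt1 and Mt2 thus had larger log2 fold changes than any of the 16, and the part of the glucocorticoid response in their difference was not tested.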

How the data were processed

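RNA-seq libraries of 3 K382Q and 3 K382R cultures, read as pairs of 150 bp, were aligned by the authors with HISAT2 to GRCm39 and quantified per gene with StringTie (submitters' processing notes); the annotation release is not given in the sources used here. The authors deposited TPM, FPKM and coverage per gene. The deposited coverage is the mean read depth per base over the whole gene, without normalization. FPKM and TPM are not rescaled coverage: their ratio to it differed between genes, as it would where transcripts, each over its own length, are summed. TPM was FPKM times 1 constant per library, which gives every library the same total. Counts were not analysed here, so precision is that of 3 replicates, and p-values measure the spread between these cultures. At most 5 entries of a table repeated a gene ID; their values were summed.

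The 10 genes, all gene lists and the rule for named genes (the 10 genes, transporters with a mean TPM of at least 5, called genes of the locus, the 3 nearest profiles) were chosen with earlier results of these data known; examples from the metal and glucocorticoid lists were chosen after their values were seen. limma 3.58.1 in R 4.3.3 was fitted on log2(TPM + 0.5) with an intensity trend over 15426 genes (3 or more of the 6 libraries at a TPM of 0.5 or above), with Benjamini-Hochberg adjustment over all of them; a pseudocount makes fold changes of low genes too small. The fit was tested on simulated data. Alternatives were other filters, pseudocounts of 0.1 and 1, FPKM, median-ratio and quantile scaling, no trend, a replicate block, each library left out, a fold of 1.5, a locus of 100 kb and, added after the data were seen, gene-wide coverage. Motif windows before coding starts (GENCODE vM39, GRCm39) were also added then. Promoters came from the RefSeq table; Slc39a14 was not in it. A planned comparison of protein sequences was not run. A few genes that the rule would name are not reported here.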

Additional observations from a re-analysis of the deposited data

How the results depend on the processing

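Of the 10 genes, 4 to 6 were called across the 16 alternatives, which their choice on this comparison partly fixes. Of all genes tested 11.1% were higher and 36.9% lower, against 19.8% and 20.4% with median-ratio scaling. Over all genes, those past a fold of 2 numbered 599, against 377 with FPKM in place of TPM and 1864 at a fold over 1.5. Of the other zinc transporters, 1 was higher, against 3 with median-ratio scaling, 4 with quantile normalization and 0 to 1 when a library was left out (0 without K382R replicate 1 and without K382R replicate 2); 6 were lower, against 3 with median-ratio scaling and 2 with quantile normalization; and 1, against 0, passed at a fold over 1.5. Of the genes wholly within 100 kb of Mt1, 3 were called, against 7 within 250 kb, since fewer genes lie there. Both counts include Mt1 and Mt2. Nup93, which was called, starts 35.5 kb from Mt1 and ends beyond 100 kb, so the 3 leave it out. Mt2 over Mt1 was 1.59 in K382Q and 1.61 in K382R libraries by coverage, against 0.814 and 0.820 by TPM; the ratio of TPM to coverage differed between the genes. Replicate numbers did not pair the libraries (correlations of deviations of -0.018, 0.051 and 0.022, and not every library was nearest to its own number); with the replicate block 6987 genes were called, against 7415 without, and of the 10 genes 5, against 6. Of the 10 genes, the other zinc transporters and the metal and glucocorticoid lists, no gene called with the reported settings changed sign under these alternatives. Some genes that were not called with those settings did change sign and were called in 2 of the 16. Among them were Angptl4 of the glucocorticoid list (-0.14 to 0.17) and Fth1 (-0.11 to 0.18). With quantile normalization 11 glucocorticoid-responsive genes were higher and 4 lower. Genes outside these lists were not followed one by one. Depth was known only as aligned length, so levels near 0 carry no counting interval.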
